A study of Mus musculus with 12 samples.

Results

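Krüppel-like factors (Klf) are transcription factors, and 9 of them that are studied in blood vessels, fat or muscle were followed here in the mouse aorta: Klf2, Klf4, Klf5, Klf6, Klf7, Klf9, Klf10, Klf13 and Klf15. They were found as every non-control probe whose gene name in the scanner files is one of these 9, which gave 11 probes of 9 genes among 55675 probes and 34796 gene names. Klf13 had 3 probes and each other gene had 1. All 11 probes passed the filter on dim signal, which 27801 probes passed in all. The 9 genes were chosen on earlier results of these arrays, that is with their levels in all 4 treatment groups known, so the levels and the differences between groups are given as a description and carry no test of their own.

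Klf factors carry zinc fingers at their carboxyl end and bind GC-rich and CACCC elements, where they compete with each other and with the related Sp factors. In endothelium, Klf2 and Klf4 are induced by steady flow and keep vessels relaxed and non-thrombotic, whereas in smooth muscle Klf4 and Klf5 are known for switching cells away from the contractile state. Klf9, Klf13 and Klf15 belong to the members studied for hormone responses and metabolism, and Klf15 is a direct target of the glucocorticoid receptor.

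RNA was measured in 10 mm of aorta, cut out above the origin of the right renal artery. The mice were male C57BL/6J aged 11 to 14 weeks, with 3 mice in each of 4 groups and 1 array a mouse. The DMSO group received the vehicle dimethylsulfoxide alone and the rapamycin group received rapamycin, an inhibitor of the kinase mTOR, at 2 mg/kg/day in this vehicle. The BA+DMSO group received the challenge used to model aortic dissection, which is beta-aminopropionitrile (BAPN, a blocker of collagen crosslinking) at 150 mg/kg/day with angiotensin II (AngII) at 1 µg/kg/min, together with the vehicle. The BA+rapamycin group received the same challenge with rapamycin at 2 mg/kg/day. All mice received the intraperitoneal vehicle, and tissue was taken on day 3. The challenge was given through implanted pumps, and no pump is described for the DMSO and rapamycin mice. DMSO samples carry titles starting with Pre, which in the paper means before any challenge, although the series record lists them as DMSO alone.

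A level below means log2 of the processed signal minus the 75th percentile of its array, so 0 is the brightness of that percentile. Levels of different probes are not compared, because probes differ in brightness. In intensity units the 75th percentile of DMSO arrays was 221 to 280, that of rapamycin arrays 257 to 337, that of BA+DMSO arrays 78.1 to 246 and that of BA+rapamycin arrays 74.6 to 109. Arrays of a group correlated across probes at 0.912 to 0.961 in BA+DMSO and at 0.974 or more in the other 3 groups. The arrays lay on 2 slides. Slide 1 held the 3 DMSO arrays and rapamycin array 1, and slide 2 held the other 2 rapamycin arrays and all challenged arrays, so for the challenge the slide and the treatment can hardly be told apart. In a piece of aorta with all its cells, fewer cells of a type and less RNA per cell cannot be told apart either.

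Among the metabolic and hormone-responsive members, Klf15 had a lower mean than DMSO in BA+DMSO and a higher one in rapamycin. Klf15 drives the use of amino acids and fatty acids in muscle and liver, and it also acts in smooth muscle and heart. Its levels were 0.58, 0.47 and 0.78 on the DMSO arrays. They were 1.82, 1.19 and 2.49 in rapamycin. In BA+DMSO they were -2.40, -1.25 and -1.35. In BA+rapamycin they were -3.17, -3.20 and -2.11, where the probe was well above background on 1 of 3 arrays. The order from high to low was rapamycin, DMSO, BA+DMSO and BA+rapamycin, and the neighbouring groups did not overlap except for the challenged pair, whose ranges met between -2.40 and -2.11. Klf15 was thus 4.84-fold lower in BA+DMSO than in DMSO, a log2 difference of -2.28 ± 0.41 (standard error of the fit, as for every ± below, with 3 arrays a group). Rapamycin exceeded DMSO by 1.22 ± 0.41, which is 2.33-fold. The log2 difference between BA+rapamycin and rapamycin was -4.66 ± 0.41, where the lower group had 1 of 3 arrays well above background. The log2 difference between BA+rapamycin and BA+DMSO was -1.16 ± 0.41. The interaction, which is the rapamycin difference under challenge minus the rapamycin difference without it, was -2.38 ± 0.58.

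Within slide 1, with 1 rapamycin array against 3 DMSO arrays, rapamycin minus DMSO was 1.21 for Klf15 on the log2 scale. Within slide 2, with 3 BA+rapamycin arrays against 2 rapamycin arrays, which read 1.19 and 2.49, BA+rapamycin minus rapamycin was -4.66. With the slide as a fixed block, BA+DMSO minus DMSO was -2.29. In that fit, for every gene, the slide is estimated from the rapamycin arrays alone, 1 on slide 1 against 2 on slide 2. Klf15 was dim after the challenge. With the normexp correction the log2 difference between BA+DMSO and DMSO was -1.41, that between BA+rapamycin and rapamycin was -2.73, that between BA+rapamycin and BA+DMSO was -0.17, and the interaction was -1.32.

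Klf9, a factor induced by glucocorticoid and thyroid hormones, had a level of 3.75, 3.86 and 4.19 in DMSO and of 4.49, 4.51 and 4.82 in rapamycin. Every rapamycin array was above every DMSO array. After the challenge its levels were 2.72, 3.84 and 3.49 in BA+DMSO and 3.40, 2.96 and 3.55 in BA+rapamycin. All BA+rapamycin arrays lay below all rapamycin arrays, while BA+DMSO overlapped both DMSO and BA+rapamycin. The log2 differences of Klf9 were 0.67 ± 0.28 for rapamycin minus DMSO, -0.58 ± 0.28 for BA+DMSO minus DMSO and -1.30 ± 0.28 for BA+rapamycin minus rapamycin. Without BA+DMSO array 1, the lowest of its group, BA+DMSO minus DMSO was -0.26. Within 1 slide the rapamycin difference was 0.55 and the difference between BA+rapamycin and rapamycin was -1.36.

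Klf13, studied in lymphocytes, heart and brain and a close relative of Klf9, is described by its probe for the RefSeq transcript, which had the highest mean. Levels were 1.82, 1.88 and 1.73 in DMSO and 2.30, 2.37 and 2.77 in rapamycin, with no overlap. They were 1.46, 1.71 and 1.93 in BA+DMSO and 1.62, 1.49 and 1.97 in BA+rapamycin, so the challenged groups and DMSO overlapped. Rapamycin minus DMSO was 0.67 ± 0.20 on the log2 scale, BA+DMSO minus DMSO was -0.11 ± 0.20 (0.03 with array weights, -0.25 with normexp and -0.38 when the slide was blocked), and BA+rapamycin minus rapamycin was -0.79 ± 0.20. Klf9 and Klf13 shared the order of Klf15 for the unchallenged groups, with rapamycin above DMSO, and for all 3 genes the challenged groups overlapped each other.

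**Figure D1:**
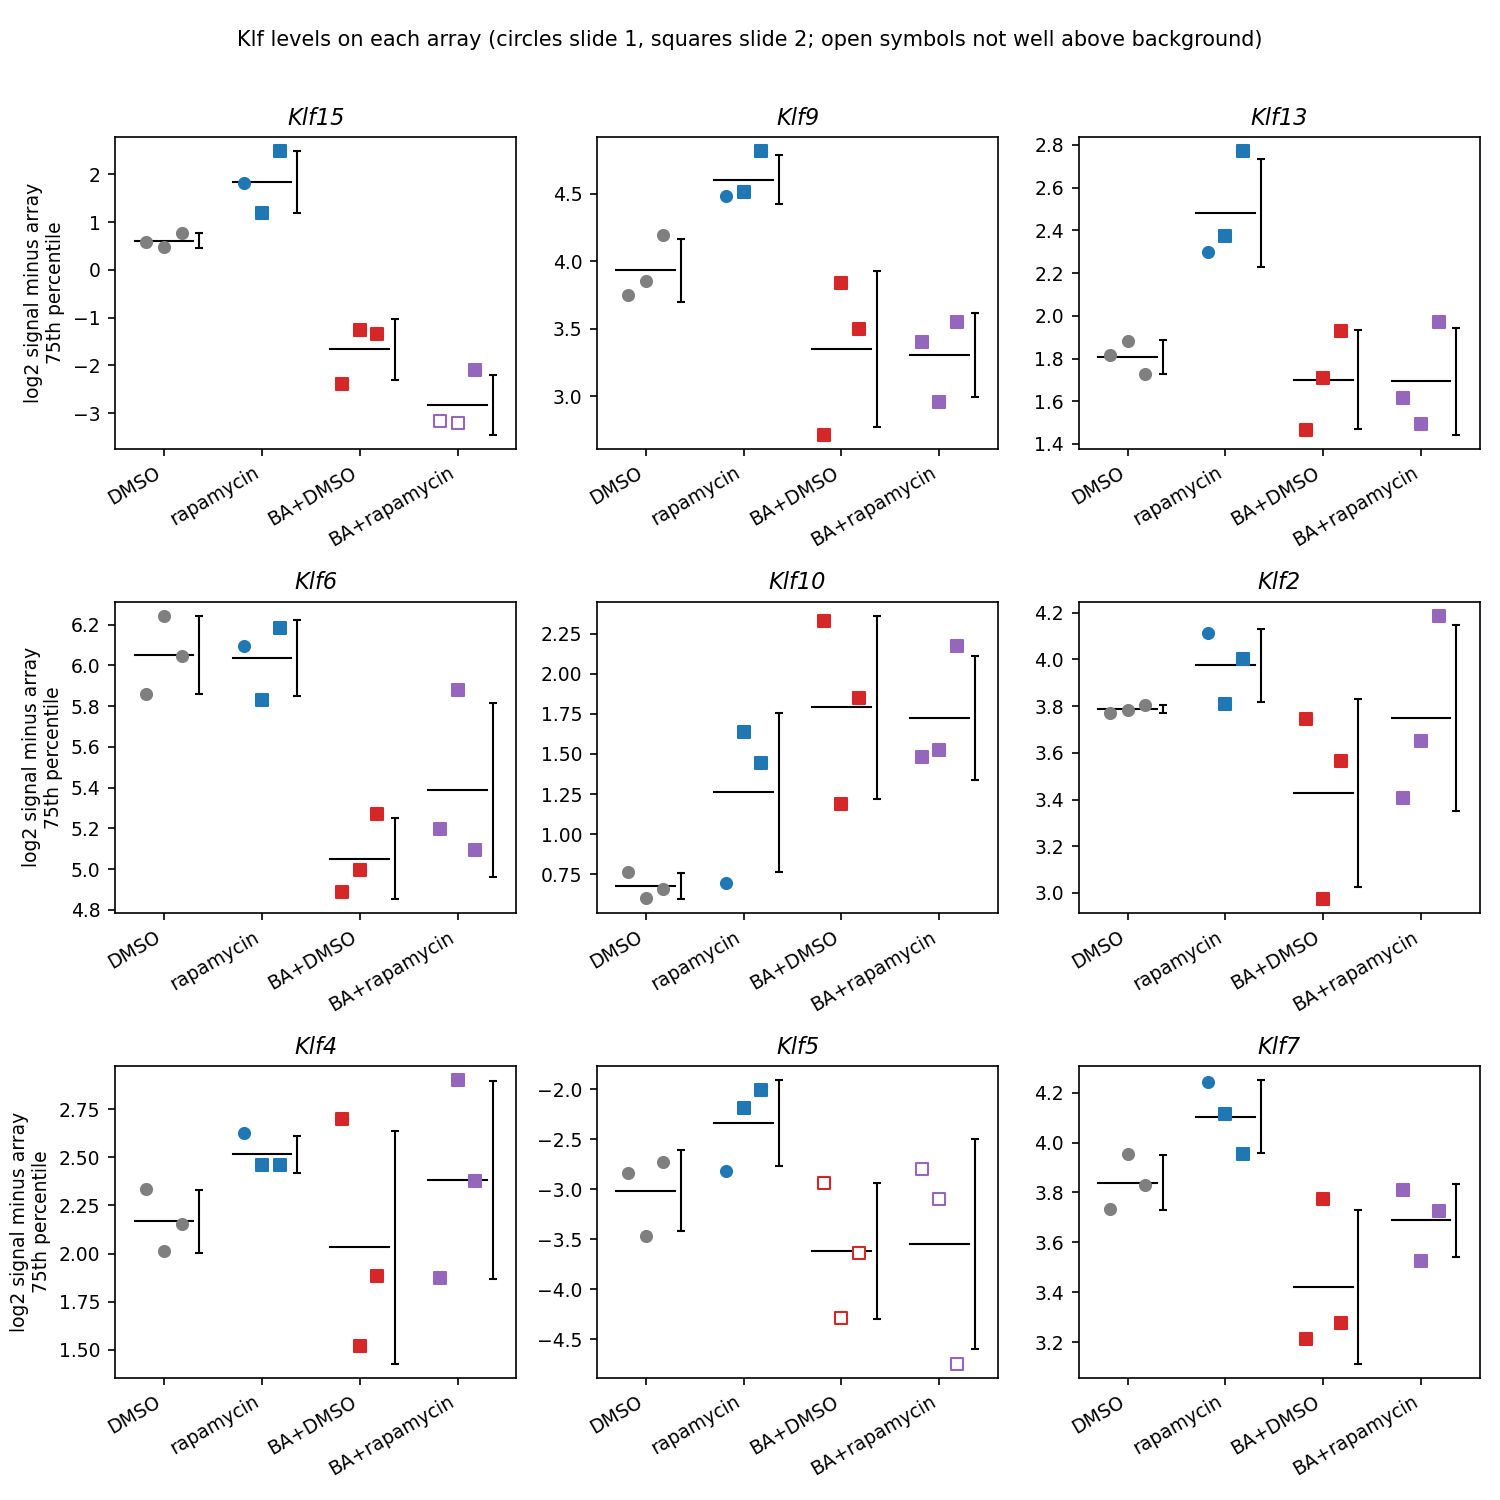
Levels of the 9 Klf genes on each array, as log2 processed signal minus the 75th percentile of the array on the vertical axis, with the 4 groups on the horizontal axis. Horizontal lines are group means and bars are SD over 3 arrays; circles are slide 1, squares slide 2 and open symbols are not well above background. Klf15 separates the unchallenged from the challenged arrays, from 0.47 or higher to -1.25 or lower, and each panel has its own scale.

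The gene name Klf13 was also carried by 2 other probes. On mm9, the build of the array design, the probe for the RefSeq transcript lies at chr7:71082854-71082913. A second probe spans a splice junction between 71036675 and 71069606, and another, at chr7:71032482-71032541, has coordinates on the opposite strand. Whether this opposite-strand probe reads the Klf13 transcript was not tested. The junction probe read -0.83, -0.67 and -0.83 in DMSO and -0.66, -0.83 and -0.24 in rapamycin. It read -2.30, -1.56 and -1.07 in BA+DMSO and -2.78, -3.64 and -2.46 in BA+rapamycin, where 1 of 3 arrays was well above background. For this dim probe the separation of the challenged groups depended on the background correction. Their log2 difference was -1.31 ± 0.35 with no overlap, and with the normexp correction, a setting added after the values were seen, it was -0.21 with overlap. BA+DMSO and DMSO did not overlap, at -0.87 ± 0.35 for the junction probe and -0.58 ± 0.22 for the opposite-strand probe, and with normexp these were -0.28 and -0.61. The opposite-strand probe had group means of 1.62, 1.96, 1.05 and 1.05 in the order DMSO, rapamycin, BA+DMSO and BA+rapamycin. All 3 probes had a lower mean in BA+rapamycin than in rapamycin, with no overlap, and a higher mean in rapamycin than in DMSO, where the junction probe overlapped.

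**Figure D2:**
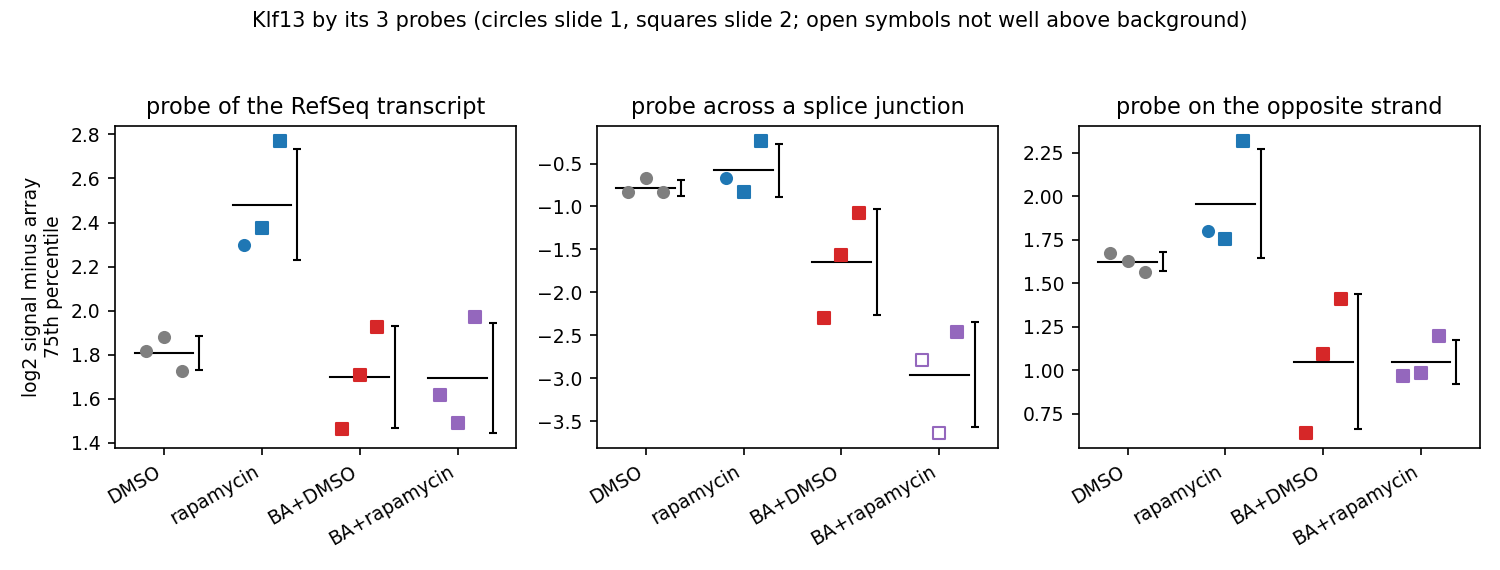
Klf13 by its 3 probes, each with log2 processed signal minus the array's 75th percentile on the vertical axis and the 4 groups on the horizontal axis. Lines are means and bars SD over 3 arrays, with open symbols for arrays not well above background; the junction probe reads -2.46 or lower in BA+rapamycin, where 1 of 3 arrays was well above background, and with the normexp correction its challenged groups overlap.

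The promoter windows of the members that stood apart are shown because Klf factors bind GC boxes themselves and because E-boxes are read by clock and Myc-type factors. They are the 250 bases before the start listed by RefSeq on GRCm38.p6, written 5′ to 3′ on the strand of the gene. Capitals mark the E-box CACGTG and the GC box GGGCGG on either strand (CCGCCC when read on the other), and the 2 motifs share no base in these 4 windows. The windows lie at chr6:90462326-90462575 for Klf15, chr19:23140976-23141225 for Klf9, chr7:63938916-63939165 on the minus strand for Klf13 and chr13:5861239-5861488 for Klf6. The listed start of Klf15 lies inside the gene's RefSeq span, so another start is upstream.
Klf15: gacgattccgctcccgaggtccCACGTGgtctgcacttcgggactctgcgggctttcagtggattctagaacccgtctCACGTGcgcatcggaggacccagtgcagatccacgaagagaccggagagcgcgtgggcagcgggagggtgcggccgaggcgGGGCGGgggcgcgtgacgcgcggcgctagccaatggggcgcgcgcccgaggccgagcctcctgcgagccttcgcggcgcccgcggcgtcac
Klf9: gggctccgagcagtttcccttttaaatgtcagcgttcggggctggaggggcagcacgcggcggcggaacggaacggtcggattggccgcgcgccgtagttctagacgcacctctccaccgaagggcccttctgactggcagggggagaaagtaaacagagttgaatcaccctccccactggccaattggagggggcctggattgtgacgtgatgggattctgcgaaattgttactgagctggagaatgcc
Klf13: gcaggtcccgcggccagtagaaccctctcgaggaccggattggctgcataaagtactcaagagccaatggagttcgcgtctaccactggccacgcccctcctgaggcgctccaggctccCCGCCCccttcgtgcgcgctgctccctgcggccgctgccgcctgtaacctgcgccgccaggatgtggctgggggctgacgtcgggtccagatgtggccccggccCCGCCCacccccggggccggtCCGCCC
Klf6: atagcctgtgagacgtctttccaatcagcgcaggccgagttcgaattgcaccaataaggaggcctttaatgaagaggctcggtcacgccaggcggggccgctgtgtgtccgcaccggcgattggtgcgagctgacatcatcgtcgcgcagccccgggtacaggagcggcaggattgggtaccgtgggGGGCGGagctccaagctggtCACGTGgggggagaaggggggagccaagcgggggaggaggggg

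Of the 9 genes, 7 had a window in the promoter table, all but Klf5 and Klf10. The window of Klf15 held 2 E-boxes, starting 228 and 172 bases before the listed start, and 0.429% of 32851 promoter windows of this length held as many. That of Klf4 held 1 at 182 bases before the start and that of Klf6 held 1 at 43 bases before it, and 6.02% of windows held at least 1. Klf2, Klf7, Klf9 and Klf13 had no CACGTG in their window. GC boxes were in all of the 7 windows except that of Klf9, and in 32.7% of all windows. Klf4 had 4, Klf13 had 3, Klf2 had 2, and Klf6, Klf7 and Klf15 had 1 each. These matches describe letters in a window and show no binding.

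Among the members known as early responders to injury and growth factors, Klf6 and Klf10 lay on opposite sides of DMSO after the challenge. Klf6, an injury-response factor that acts in vascular repair, had levels of 5.86, 6.24 and 6.05 in DMSO and of 6.10, 5.83 and 6.18 in rapamycin. Its levels were 4.89, 4.99 and 5.27 in BA+DMSO and 5.20, 5.88 and 5.09 in BA+rapamycin. All 3 BA+DMSO arrays lay below all DMSO arrays, and the log2 difference was -0.999 ± 0.23, or -0.91 with the slide as a fixed block. BA+rapamycin differed from rapamycin by -0.65 ± 0.23, with array 2 of BA+rapamycin above the lowest rapamycin array. In unchallenged mice the group means of Klf6 were 6.04 with rapamycin and 6.05 without, and the arrays overlapped.

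Klf10, which is induced by TGF-β and carries its antiproliferative signal, had levels of 0.76, 0.60 and 0.66 in DMSO and of 2.33, 1.19 and 1.85 in BA+DMSO. Every BA+DMSO array was higher than every DMSO array, and the log2 difference was 1.12 ± 0.32, or 2.17-fold. The levels were 0.70, 1.64 and 1.45 in rapamycin and 1.48, 1.53 and 2.17 in BA+rapamycin. The rapamycin arrays divided by slide. Array 1, on slide 1, was within the DMSO range, and both arrays on slide 2 were above every DMSO array. Rapamycin minus DMSO was 0.59 ± 0.32 on the log2 scale over all arrays and 0.02 within slide 1. BA+DMSO minus DMSO was 0.27 with the slide as a fixed block, and BA+rapamycin minus rapamycin was 0.47 ± 0.32 over all arrays and 0.18 within slide 2. For Klf10 the slide thus moves with the values, and its part in the difference cannot be told apart from the challenge.

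The endothelial flow factors Klf2 and Klf4 had smaller differences than Klf15, Klf6 and Klf10 between BA+DMSO and DMSO. Klf2, which keeps endothelial nitric oxide synthase and thrombomodulin high, had levels of 3.77, 3.78 and 3.81 in DMSO and of 4.11, 3.81 and 4.002 in rapamycin. In BA+DMSO they were 3.74, 2.97 and 3.57, all under the DMSO arrays, with 3.74 and 3.77 as the nearest pair. In BA+rapamycin they were 3.41, 3.65 and 4.19. The log2 difference between BA+DMSO and DMSO was -0.36 ± 0.24 and that between rapamycin and DMSO was 0.19 ± 0.24. Without BA+DMSO array 2 the former was -0.13, and with the slide as a fixed block it was -0.15. The latter was 0.12 without rapamycin array 1 and 0.33 within slide 1.

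Klf4 had levels of 2.34, 2.01 and 2.16 in DMSO and of 2.63, 2.46 and 2.46 in rapamycin, and these groups did not overlap. It read 2.70, 1.52 and 1.88 in BA+DMSO and 1.87, 2.90 and 2.38 in BA+rapamycin, so both challenged groups spanned the DMSO levels. Rapamycin minus DMSO was 0.35 ± 0.31 on the log2 scale and BA+DMSO minus DMSO was -0.13 ± 0.31. The latter was -0.47 without BA+DMSO array 1. It took the other sign without BA+DMSO array 2, at 0.12, and with the slide as a fixed block, at 0.03.

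Klf5, a growth-promoting factor of smooth muscle that responds to AngII, had a probe well above background on all DMSO and rapamycin arrays and on none of the 6 challenged arrays. The levels were -2.84, -3.47 and -2.73 in DMSO and -2.82, -2.19 and -2.01 in rapamycin, a log2 difference of 0.67 ± 0.50 with groups that overlapped. As for Klf10, rapamycin array 1, on slide 1, was within the DMSO range and both arrays on slide 2 were above it, and the difference was 0.19 within slide 1 and 0.24 with the normexp correction. They were -2.93, -4.28 and -3.63 in BA+DMSO and -2.80, -3.10 and -4.74 in BA+rapamycin. With the normexp correction the log2 differences of the challenged groups from their controls were 0.38 and 0.41, of the other sign, so no direction is given for Klf5 after the challenge.

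Klf7, a factor known from neurons and fat cells, had levels of 3.73, 3.95 and 3.83 in DMSO and of 4.24, 4.12 and 3.95 in rapamycin. They were 3.21, 3.78 and 3.28 in BA+DMSO and 3.81, 3.53 and 3.73 in BA+rapamycin. BA+DMSO minus DMSO was -0.42 ± 0.19 on the log2 scale with groups that overlapped, and -0.21 with the slide as a fixed block. BA+rapamycin minus rapamycin was -0.42 ± 0.19 with groups that did not overlap, and ran from -0.80 to -0.23 over the scaling alternatives.

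**Figure D3:**
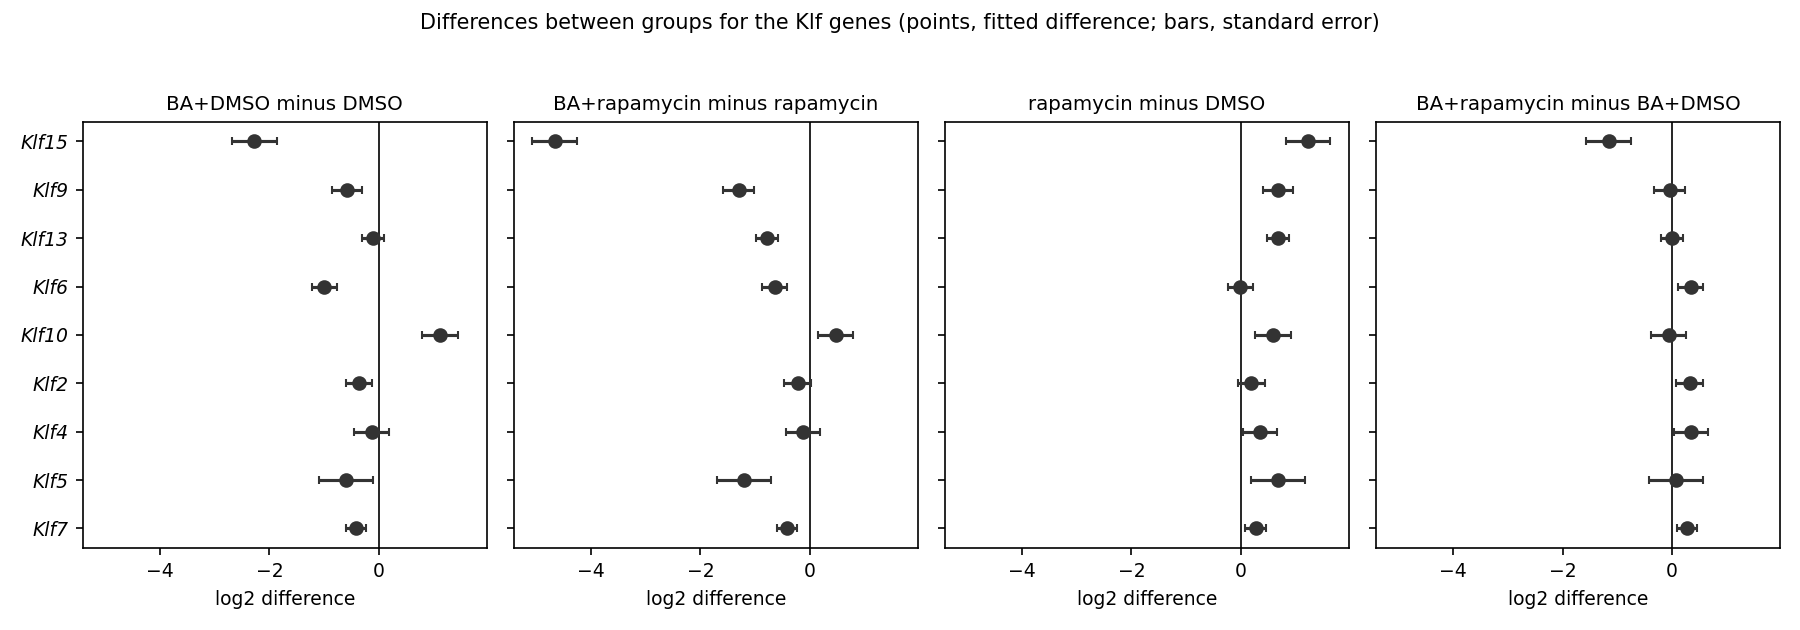
Log2 difference between 2 groups for each Klf gene, with the point at the fitted difference, the bar at its standard error and the vertical line at no difference. BA+DMSO minus DMSO and BA+rapamycin minus rapamycin share no array; the panel of rapamycin minus DMSO shares the DMSO arrays with the former and the rapamycin arrays with the latter. The Klf15 points run from -4.66 to 1.22, and the lowest rests on BA+rapamycin arrays of which 1 of 3 was well above background.

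Counted over the 9 genes, 3 were called between BA+DMSO and DMSO by limma at an adjusted p under 0.05, where 20.5% of the 27801 tested probes were called. They were Klf15 and Klf6, with a lower mean in BA+DMSO (10.8% of probes were called lower), and Klf10, with a higher mean (9.65%). Between BA+rapamycin and rapamycin, 4 were called, Klf15, Klf9, Klf13 and Klf6, all with a lower mean in BA+rapamycin, where 22.9% of probes were called lower and 41.7% were called in either direction. No member was called for rapamycin minus DMSO (0.0036% of probes were called, and 1187 of 27801 had an unadjusted p under 0.05), for BA+rapamycin minus BA+DMSO (0.281%) or for the interaction (0% were called, and 1702 had an unadjusted p under 0.05). Since the genes were chosen with these levels known, nothing is read from their counts.

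The arrays of rapamycin lay above all DMSO arrays for 5 of the 9 genes, Klf15, Klf9, Klf13, Klf4 and Klf2, where 10.8% of tested probes did so. For Klf2 the nearest arrays, at 3.8075 and 3.8069, were all but tied. For BA+DMSO against DMSO the groups did not overlap for 3 lower genes, Klf15, Klf6 and Klf2 (20.1% of probes), and for 1 higher gene, Klf10 (14.4%). For BA+rapamycin against rapamycin they did not overlap for 4 lower genes, Klf15, Klf9, Klf13 and Klf7 (36.1%). No gene's RefSeq or sole probe separated the challenged groups from each other (14.5%). The median log2 difference of the 9 genes was -0.42 for BA+DMSO minus DMSO, -0.65 for BA+rapamycin minus rapamycin, 0.59 for rapamycin minus DMSO and 0.07 for BA+rapamycin minus BA+DMSO. Over all tested probes these medians were -0.04, -0.08, -0.01 and -0.01. Without BA+DMSO array 2 the first median of the 9 genes was -0.27. That for rapamycin minus DMSO was the value of Klf10 itself, and it was 0.405 within slide 1 and 0.35 with the normexp correction. That for BA+rapamycin minus BA+DMSO was the value of Klf5, whose probe was well above background on no challenged array. It was 0.21 without BA+DMSO array 1. Over the 7 genes whose probe was well above background on all 12 arrays it was 0.27.

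Leaving out single arrays changed some of these calls. Between BA+DMSO and DMSO, 1 gene was called without DMSO array 2, Klf15 at -2.34, when 2051 of all tested probes were called in place of 5697. Without BA+DMSO array 2, the array with the lowest Klf2 and Klf4, 5 were called, with Klf7 at -0.59 and Klf9 at -0.83 added and 7555 probes called. Klf10 was called under 13 of 22 alternatives and Klf6 under 18 of 22. None of the 9 was called with the slide as a fixed block, when 15 probes were called in all, although Klf15 was at -2.29 and Klf6 at -0.91 there. Between BA+rapamycin and rapamycin, Klf15 and Klf9 were called under all alternatives tried, Klf13 was called in 22 of 23 and was lost without rapamycin array 3, and Klf6 was called in 10 of 23.

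The rest of the Klf and Sp family was read as a list of 17 genes, of which 11 passed the filter on dim signal. Between BA+DMSO and DMSO 5 of these 11 fell (10.8% of all tested probes were called lower), none rose, and the median log2 difference was -0.84. The largest falls were in Sp4 (-1.59), in Klf12, a repressor (-1.09), and in Klf8, which is tied to cell growth (-1.01). Under rapamycin, the challenge comparison had 6 that fell, among them Sp2 (-1.54) and Klf12 (-1.41), and none that rose. There 22.9% of all tested probes were called lower, and the median of the list was -1.12. Both medians are values of Sp3, whose probe was well above background on 2 BA+DMSO arrays and on no BA+rapamycin array. Klf11, a TGF-β-induced relative of Klf10, was also called lower and is given no size, because its probe was not well above background on any BA+rapamycin array. No gene of the list was called between rapamycin and DMSO (0.0036% of all tested probes were), with a median of 0.14. None was called between the challenged groups either (0.281%). Of the 11 probes, 5 were not well above background on all 12 arrays. With the normexp correction the medians for the challenge were 0.01 without rapamycin and -0.16 with it. The shift thus depends on the background correction, and without rapamycin so does its sign. Without DMSO array 2, 1 gene of the list fell between BA+DMSO and DMSO (2051 probes called), and none did with the slide as a fixed block (15 probes).

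Metabolic genes linked to Klf15 were read as a list of 12, all of which passed the filter. Between BA+DMSO and DMSO 5 fell and 1 rose, with a median log2 difference of -0.41. Of all tested probes 20.5% were called in this comparison and 10.8% were called lower. The largest falls were in Aldh6a1, an enzyme of valine breakdown (-1.78), Slc2a4, the insulin-responsive glucose transporter (-1.58), and Bckdha, a subunit of the branched-chain ketoacid dehydrogenase (-0.86). Gpt, an alanine aminotransferase, rose by 0.66. In BA+rapamycin against rapamycin, 6 fell and 1 rose, where 41.7% of all tested probes were called and 22.9% called lower. Aldh6a1 was at -2.44, Slc2a4 at -1.48 and Acadm, which oxidises medium-chain fatty acids, at -1.23. Rapamycin minus DMSO gave a median of -0.10 with no call, where 0.0036% of all tested probes were called. A part of Klf15 in the levels of these genes was not tested. Without DMSO array 2, 3 of the list fell and none rose between BA+DMSO and DMSO (2051 probes called). The rise of Gpt was lost with most single arrays left out.

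Glucocorticoid targets were read because Klf15 and Klf9 are known among them, as a list of 12 others that all passed the filter. In rapamycin, 11 of 12 had a higher mean than in DMSO and the median log2 difference was 0.87, beside -0.01 over all tested probes. None was called by limma, where 0.0036% of all tested probes were called. For 4 of the 12, Fkbp5, Zbtb16, Sgk1 and Per1, every rapamycin array was above every DMSO array, as for 10.8% of all tested probes. Fkbp5, a co-chaperone that dampens the receptor, had the largest value, 1.75, followed by Zbtb16 at 1.46 and Tsc22d3 at 1.25. Between BA+DMSO and DMSO 4 rose and none fell, where 9.65% of all tested probes were called higher. The largest were Angptl4, an inhibitor of lipoprotein lipase, at 3.79, Lcn2 at 2.59 and Mt2, a metallothionein, at 1.72. Between BA+rapamycin and rapamycin 5 fell, with Pdk4 at -1.92, Sgk1 at -1.84 and Zbtb16 at -1.73, and 3 rose, with Lcn2 at 2.81 and Angptl4 at 2.07 as the largest. Of all tested probes 41.7% were called there and 22.9% were called lower. By means, 7 of the 12 were higher and 5 lower in BA+DMSO than in DMSO. In BA+rapamycin against rapamycin, 4 were higher and 8 lower. Klf15 and Klf9 had lower means in both comparisons, and a part of glucocorticoids in these levels was not tested. Without rapamycin array 3, 2 fell and 3 rose between BA+rapamycin and rapamycin (6530 probes called), and the median for rapamycin minus DMSO was 0.65. Without rapamycin array 2, 5 fell and 1 rose between BA+rapamycin and rapamycin (8412 probes).

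Immediate early genes, which respond to stress and growth factors within minutes, had 16 of 18 listed genes past the filter. Between BA+DMSO and DMSO 9 fell and none rose (10.8% of all tested probes were called lower), with a median log2 difference of -0.96. Atf3 fell by 5.10, Fos, which 2 of 3 BA+DMSO arrays measured above background, fell by 3.39 and Nr4a1 fell by 2.75. Against rapamycin, BA+rapamycin had 8 that fell and 3 that rose, with a median of -0.66. Of all tested probes 41.7% were called in this comparison and 22.9% were called lower. Atf3 (-3.24), Fosb (-2.22) and Btg2 (-2.02) had the largest values, and Egr2 (1.86), Myc (1.84) and Nr4a2 (1.12) were those that rose. Without DMSO array 2, 5 fell between BA+DMSO and DMSO (2051 probes called), and without BA+DMSO array 2, 9 fell and 3 rose (7555 probes). No listed gene of any kind was called between BA+DMSO and DMSO with the slide as a fixed block.

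Endothelial targets of Klf2 and Klf4 were a list of 10, of which 9 passed the filter. Ccl2, a chemokine for monocytes, rose by 5.17 log2 units between DMSO and BA+DMSO, and Vcam1, an adhesion molecule, rose by 1.42. None of the list fell, and 20.5% of all tested probes were called in this comparison. Nos3, the endothelial nitric oxide synthase, differed by 0.10 and Thbd, thrombomodulin, by 0.14, and neither was called. Comparing BA+rapamycin with rapamycin, where 41.7% of all tested probes were called, Ccl2 rose by 4.88. Tek, the angiopoietin receptor, fell by 0.99 with groups that overlapped. No gene of this list was called between rapamycin and DMSO (0.0036% of all tested probes were), with a median of 0.28. The fall of Tek was lost when any DMSO array was left out.

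**Figure D4:**
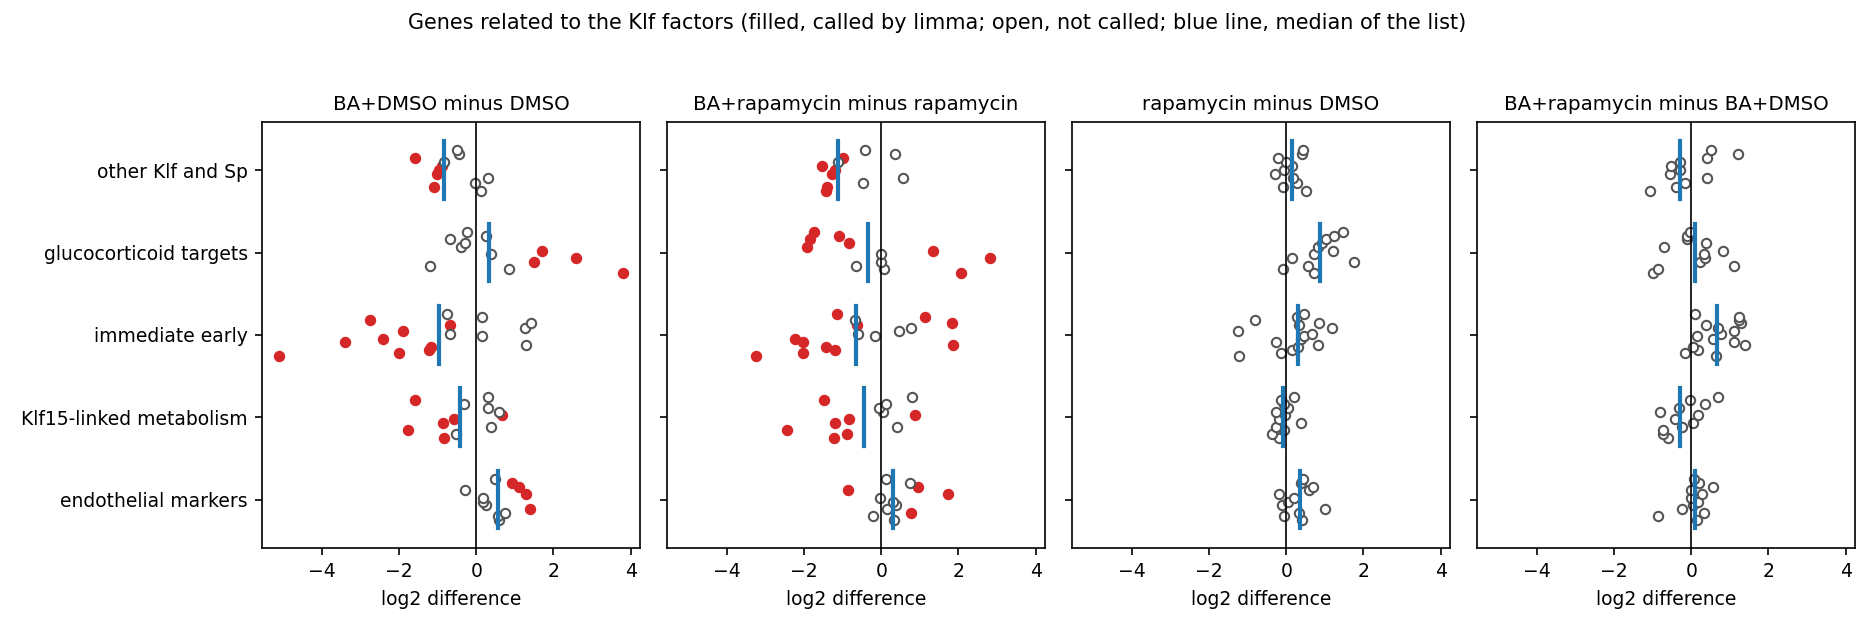
Log2 differences of single genes in 5 lists related to the Klf factors, in 4 comparisons, with filled red points for genes called by limma, open points for genes not called and a blue line at the median of the list. The other Klf and Sp genes have medians of -0.84 and -1.12 in the challenge comparisons, which depend on the background correction. The glucocorticoid targets have a median of 0.87 with no call in rapamycin minus DMSO.

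Cell type markers also moved between the groups. Between DMSO and BA+DMSO, 9.65% of all tested probes were called higher and 10.8% called lower. Of 12 endothelial markers 4 rose and none fell between DMSO and BA+DMSO (Emcn 1.40, Kdr 1.28 and Robo4 1.096 as the largest), and their summed linear level on DMSO, rapamycin, BA+DMSO and BA+rapamycin arrays was 137 to 163, 157 to 229, 186 to 276 and 221 to 346. No endothelial marker was called without DMSO array 1. Of 11 macrophage markers 9 rose, with Cd68 at 2.63 and a median log2 difference of 1.83, and their sums were 116 to 147, 130 to 152, 196 to 496 and 385 to 511 in the same order. Such sums weigh the brightest probes most, here Itgam, with a mean level of 6.58 in DMSO. In BA+rapamycin against BA+DMSO, 5 of the 11 macrophage markers had a higher mean and 6 a lower one, with a median of -0.03. Contractile smooth muscle markers, which check the tissue, all passed the filter, and 3 of 12 fell between DMSO and BA+DMSO, with Synpo2 at -2.58, Lmod1 at -1.91 and Cald1 at -1.07. Their sums were 3087 to 3292, 2796 to 3249, 2514 to 4975 and 3575 to 4615, and without BA+DMSO array 2, 7 of the 12 fell (7555 probes called).

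Fat and striated muscle express Klf15 and Klf9 and can remain on an excised aorta. Of the adipocyte markers, Lep and Lipe did not pass the filter. Of the other 10, 1 was called between BA+DMSO and DMSO (9.65% of all tested probes were called higher). It was Ucp1, the brown fat uncoupling protein, higher in BA+DMSO and not well above background on any DMSO array, so no size is given. Adipoq (2.08), Cidec (1.80) and Cfd (1.46) were not called, with BA+DMSO arrays above all DMSO arrays. Of the 10 markers, 8 had a higher mean in BA+DMSO and 2 a lower one, with a median log2 difference of 1.36. Their sums on DMSO, rapamycin, BA+DMSO and BA+rapamycin arrays were 49.5 to 67.1, 43.5 to 85.7, 60.5 to 211 and 39.4 to 236. Ucp1 was not called without DMSO array 2 or without BA+DMSO array 1. Of 12 striated muscle markers, 6 did not pass the filter, among them the fast myosins Myh1, Myh2 and Myh4. None of the other 6 was called between BA+DMSO and DMSO, and their sums were 64.3 to 76.6, 55.2 to 61.8, 19.0 to 63.8 and 19.5 to 64.2. The brightest of these 6 was Acta1, with a mean level of 5.85 in DMSO. Between BA+rapamycin and rapamycin, where Klf15 and Klf9 differed by -4.66 and -1.30, 2 of these 6 fell, Acta1 (-1.48) and Actn2 (-1.67), and 1 rose, Tnni2 (2.65), while none fell without BA+rapamycin array 3. In that comparison 8 of 11 macrophage markers rose and 1 fell. Of 12 contractile markers 1 rose and 4 fell, of 12 endothelial markers 3 rose and 1 fell, and no adipocyte marker was called. Over all tested probes 41.7% were called there in either direction and 22.9% were called lower. Between rapamycin and DMSO no marker of any of these 5 cell types was called, where 0.0036% of all tested probes were called. By means, 9 of 11 macrophage and 9 of 12 endothelial markers were higher in rapamycin, with medians of 0.37 and 0.35. Lower means were found for 11 of 12 contractile and 5 of 6 striated muscle markers, with medians of -0.10 and -0.44. Of 10 adipocyte markers 6 were higher and 4 lower, with a median of 0.02. The part of these cells in the Klf levels was not tested.

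The genes with a pattern over the 12 arrays most like that of each member were sought among 10541 genes that were well above background on all arrays, by Pearson's r and as a description only, since the arrays share groups and slides. For Klf15 they were Trp53inp1 (0.978), Camk2n1 (0.977) and Tmtc1 (0.974). Those of Klf9 were Tcap (0.948), Per2 (0.948), a clock repressor, and Lrp3 (0.947). Klf13 had Limd1 (0.924), Hip1r (0.915) and Gltscr2 (0.906). Klf6 was most like Las1l (0.964), Dnajb5 (0.963) and Ythdc1 (0.960), and Klf10 was most like Sh3bp5 (0.937), Cdc42ep1 (0.934) and Afap1l1 (0.930). For Klf7 the closest was Snx29 (0.964). The closest genes of Klf2, Klf4 and Klf5 were Herpud1 (0.853), Tnfaip6 (0.860) and Ctps (0.831).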

How the data were processed

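Aortic RNA of 12 mice was labelled with Cy3 and hybridised by the authors to 1-colour Agilent mouse arrays. Per the file headers, the deposited processed signal is a background-subtracted intensity on a linear scale from Feature Extraction 10.7.1.1 (the submitters' processing notes give 9.5.1.1), and probes are placed on mm9. Spot flags of the deposited files, described per the file headers, were used too. The deposited series matrix holds intensity that matched a quantile normalization of the processed signal, although its normalization is not stated. Outlier spots were removed, log2 values of a probe's spots were averaged and each array's 75th percentile was subtracted. Dropping 6 probes that lacked a value left 55675. Probes entered the test when, in 1 group or more, each of the 3 arrays had a share of 0.5 or more of the probe's spots flagged well above background. All 12 arrays entered 1 limma 3.58.1 fit with a mean for each group (R 4.3.3, version 1.17.8 of data.table), two-sided, with Benjamini-Hochberg adjustment over 27801 probes and a threshold of 0.05. The script was tested on simulated data. The number of arrays limits the precision. Replicates were numbered in the order of deposition.

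The members, gene lists, named genes and tests were chosen with earlier results of these data known. A gene stood by its tested probe with the highest mean. All 9 members were named, for each list the 3 genes with the largest differences among those called, and for each member the 3 genes (or the closest) with the highest correlation. Other genes of a list were named for their known role after their values were seen. Promoter windows and motif counts came from RefSeq on GRCm38.p6 (Python 3.11.15, pandas 2.3.3), and figures were drawn with matplotlib 3.10.9. Alternatives were quantile normalization, a percentile over detected probes, normexp with an offset of 50, no filter and a stricter filter, the authors' values, the slide as a block or within 1 slide, only the 2 groups compared, array weights, the mean over a gene's probes, arrays sharing a number in their titles, and each array left out. They were applied to the gene lists as an addition chosen after seeing the data.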

Additional observations from a re-analysis of the deposited data

How the results depend on the processing

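Counts of the 9 members called depended on the setting. Between BA+DMSO and DMSO 3 were called (5697 of all tested probes), and 0 were with the slide as a fixed block (15 probes), 0 with array weights (112 probes, in a fit that did not converge) and 1 with only the 2 groups compared (1244 probes). Leaving out each array in turn gave 1 to 5 (2051 to 10574 probes). Between BA+rapamycin and rapamycin 4 were called (11602 of all tested probes), 7 with array weights (18256 probes) and 2 to 5 with an array left out (6530 to 15816 probes), the lowest without rapamycin array 3. For rapamycin minus DMSO array weights gave 3 calls, Klf9, Klf13 and Klf15, in place of 0, when 1512 probes were called in place of 1. No left-out array gave a member call in this comparison (0 to 4 probes). For BA+rapamycin minus BA+DMSO the range was 0 to 1, with Klf7 at 0.44 called without BA+DMSO array 2, when 11092 probes were called in all. The interaction ranged from 0 to 1, with Klf15 at -2.18 called without that same array, when 3058 probes were called. The cause was not tested.

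No called difference changed sign under any alternative. Among differences that were not called, the scaling alternatives turned the sign for Klf5 in both challenge comparisons, Klf4 between BA+rapamycin and rapamycin (-0.47 to 0.06), Klf6 between rapamycin and DMSO (-0.08 to 0.05), and Klf5, Klf9, Klf10 and Klf13 between BA+rapamycin and BA+DMSO. Other alternatives turned further signs of such differences, among them Klf4 and Klf13 between BA+DMSO and DMSO. The percentile over detected probes moved the median of all tested probes between the challenged groups to 0.13 and normexp moved that between BA+rapamycin and rapamycin to 0.14. No paired analysis was possible because the last number in the titles repeats within groups and any 2 groups compared share at most 1 of the other numbers there, whose meaning is not stated. With only arrays that share such a number, rapamycin minus DMSO (2 arrays against 2) was 1.21 for Klf15, 0.64 for Klf9, 0.77 for Klf13 and 0.91 for Klf10. BA+rapamycin minus BA+DMSO, with 1 array against 1 and no test, was -0.78 for Klf15, -0.83 for Klf4, -0.85 for Klf10, -0.34 for Klf2, 0.69 for Klf9 and 0.60 for Klf7. Dim signal limits Klf5 and, after the challenge, Klf15 and the junction probe of Klf13. For Klf15 normexp moved BA+DMSO minus DMSO from -2.28 to -1.41 and BA+rapamycin minus rapamycin from -4.66 to -2.73.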
